A study of Mus musculus with 24 samples.

Results

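Genes of collagens, laminins and other basement membrane proteins were followed in E14 mouse embryonic stem cells (mESCs) grown on soft and stiff hydrogels. Members were chosen by symbol alone. They were the genes named like a collagen chain (*Col*, a number, *a* and a number), the genes named like a laminin α, β or γ chain, and *Fn1*, *Nid1*, *Nid2*, *Hspg2*, *Agrn*, *Sparc*, *Lox*, *Loxl2* and *Vtn*. This gave 64 genes, with 44 of collagen chains, 11 of laminin chains and 9 others, out of 35022 genes counted in the experiment on PD03 removal and 48709 in that on CHIRON removal.

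E14 is an established mESC line, labelled here as strain 129m and wild type, so that every group comes from 1 line and no group carries an engineered allele. The cells spent 12 h on fibronectin-coated StemBond hydrogels in 2i + LIF, which contained 1 µM PD03 (which inhibits MEK and so ERK signalling), 3 µM CHIRON (which inhibits GSK3 and so raises β-catenin) and the cytokine LIF. Either PD03 or CHIRON was then taken out, which left CHIRON + LIF or PD03 + LIF. RNA was taken at 0 h, still in 2i + LIF, and at 2 h and 12 h. Each experiment therefore had 6 groups of substrate and time with 2 libraries per group, and the comparison asked how matrix genes differ between soft and stiff substrates and after each removal. Replicate 1 of stiff substrates at 2 h of CHIRON removal held 171333 counts and was left out, which leaves 1 library in that group and 23 libraries in all.

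The basement membrane is the thin sheet of matrix on which epithelial cells sit. It is built from a laminin network, made of trimers of an α, a β and a γ chain, and from a collagen IV network, and nidogens and the heparan sulphate proteoglycans perlecan (*Hspg2*) and agrin (*Agrn*) tie the networks together. In the early embryo laminin is laid down before collagen IV is needed, and a basement membrane lies under the epiblast as it becomes an epithelium. Fibrillar collagens, by contrast, are products of connective tissue cells, and fibronectin (*Fn1*) is the ligand that coated these gels, here measured as the transcript that the cells themselves make.

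The libraries held 16222196 to 26442153 counts each in PD03 removal, and the 11 of CHIRON removal 19393787 to 31111260. Between 73.1% and 77.5% of these counts fell on protein-coding genes in PD03 removal and between 78.0% and 85.3% in CHIRON removal. Levels are given as CPM, counts per 1000000 protein-coding counts after TMM scaling. The labels were checked on a target of each pathway. *Dusp6*, a target of ERK, went from 35.0 and 34.5 CPM at 0 h to 128 and 131 CPM at 2 h of PD03 removal on soft substrates. *Axin2*, a target of β-catenin, went from 187 and 194 CPM at 0 h to 30.5 and 30.1 CPM at 12 h of CHIRON removal on soft substrates. All 8 pluripotency markers examined were detected in every group. In PD03 removal their summed level lay between 7294 and 7652 CPM at 0 h and 2 h, and between 5967 and 6395 CPM at 12 h. At 12 h against 0 h, 6 of the 8 fell and 0 rose on each substrate at an adjusted p under 0.05 (edgeR). Of all genes, 15.3% fell on soft and 19.9% on stiff substrates. In CHIRON removal the sum lay between 5398 and 5940 CPM. Because RNA was measured in bulk, fewer cells expressing a gene and less RNA per cell cannot be told apart.

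Of the 64 genes, 40 had enough counts to be tested in PD03 removal and 42 in CHIRON removal, of which 36 were tested in both. The 18 genes tested in neither experiment included 15 of collagen chains, and no untested gene exceeded 16 counts in a library of PD03 removal or 11 in one of CHIRON removal. *Col25a1* had 0 counts in every PD03 library, which allows up to 3 counts per library, or 0.146 to 0.251 CPM. *Lox*, which cross-links collagen and elastin, reached at most 1 count in PD03 removal and 4 counts in CHIRON removal. *Vtn*, which encodes vitronectin, an integrin ligand of serum, reached at most 2 and 5 counts. *Loxl2*, a relative of *Lox*, reached 14 counts in PD03 removal and was not tested there, whereas in CHIRON removal it was tested and its libraries held between 1.66 and 3.23 CPM. Genes that passed the filter only through the group where they are high are included in the counts below, so those counts do not describe all 64 genes.

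A few genes made up most of the matrix transcripts (the plot of levels per length). Together the 64 genes took between 0.340% and 0.395% of the protein-coding counts in PD03 removal and between 0.572% and 0.739% in CHIRON removal. *Fn1* alone provided 40.0% of their summed CPM on soft substrates at 0 h in CHIRON removal and 18.5% in PD03 removal. The tables of both experiments were normalised separately, so these levels are set side by side and were not tested against each other.

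**Figure D1:**
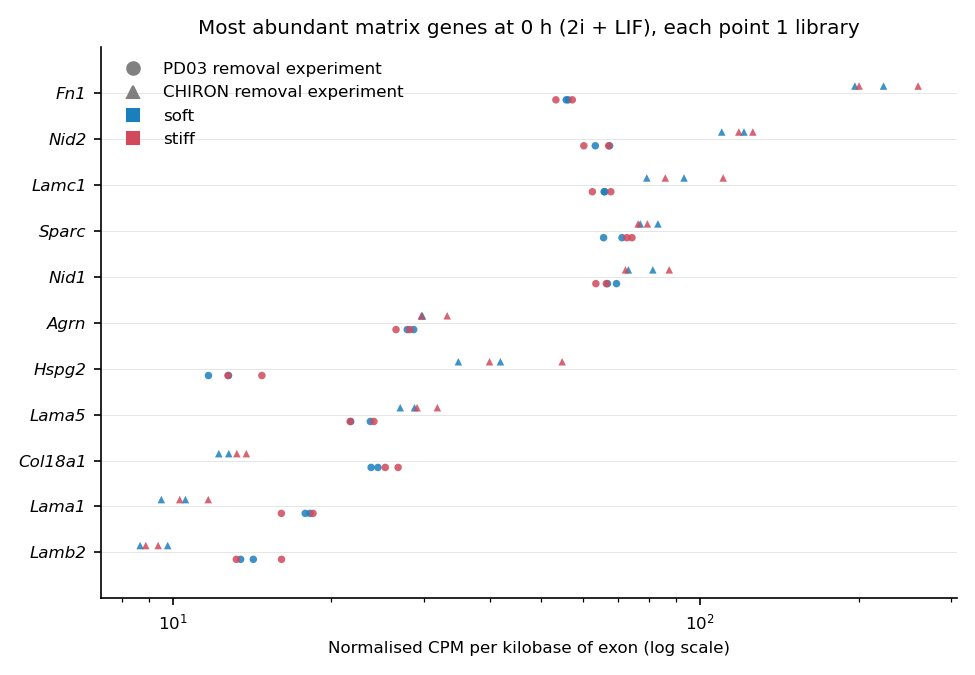
Levels of the most abundant matrix genes at 0 h in 2i + LIF, as CPM per kilobase of exon on a log axis. Each point is 1 library, circles stand for PD03 removal and triangles for CHIRON removal, and blue is soft and red is stiff, with *Fn1*, *Nid2*, *Lamc1*, *Sparc* and *Nid1* at the right in both experiments.

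Scaled to length, and as the mean of 2 libraries on soft substrates at 0 h with its SD (n = 2), *Fn1* stood at 210 ± 18.5 CPM per kilobase of exon in CHIRON removal and at 56.0 ± 0.336 in PD03 removal. *Nid2*, a nidogen that bridges laminin and collagen IV, stood at 116 ± 7.93 and 65.4 ± 2.88, and its relative *Nid1* at 77.3 ± 5.83 and 68.1 ± 1.89. *Sparc*, a secreted protein that binds collagen IV, stood at 80.2 ± 4.38 and 68.4 ± 3.88. In CHIRON removal *Fn1* stood above the other genes by more than the spread of its libraries. In PD03 removal the means of *Sparc*, *Nid1*, *Lamc1* and *Nid2* stood between 65.4 and 68.4 CPM per kilobase. They were not ordered, since levels per kilobase depend on the length chosen. The exons of *Sparc* span 3788 bases as a union and 2300 bases in the longest transcript.

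Among laminin chains, *Lamc1*, the common γ chain, was the most abundant on this scale, at 86.3 ± 9.90 CPM per kilobase in CHIRON removal and 65.9 ± 0.148 in PD03 removal (soft, 0 h). The α chain *Lama5* stood at 27.9 ± 1.23 and 22.7 ± 1.38, and *Lama1*, the α chain of the first embryonic laminin, at 10.0 ± 0.748 and 18.0 ± 0.265. The β chain with the higher level was *Lamb2*, at 9.23 ± 0.785 and 13.8 ± 0.540, while *Lamb1* stood at 0.940 ± 0.0739 and 0.610 ± 0.132. Thus the γ chain transcript exceeded every α and β chain transcript per length in both experiments. Collagen IV was low in comparison. *Col4a1* stood at 0.818 ± 0.00126 and 0.934 ± 0.0130 CPM per kilobase and *Col4a2*, its partner in the trimer, at 0.650 ± 0.110 and 0.713 ± 0.0733. The proteoglycan *Hspg2* stood at 38.3 ± 4.96 and 12.23 ± 0.758, *Agrn* at 29.7 ± 0.0891 and 28.3 ± 0.560, and *Col18a1*, the basement membrane collagen that carries endostatin, at 12.5 ± 0.385 and 24.1 ± 0.511.

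Markers of other cells that make such a matrix were low. The 12 markers of primitive and parietal endoderm, which secrete much basement membrane in the embryo, summed to between 5.06 and 7.70 CPM in PD03 removal and between 16.3 and 22.9 CPM in CHIRON removal. The 10 fibroblast markers summed to between 12.6 and 15.5 CPM in PD03 removal, where *Prrx1* was at 0, and between 23.96 and 41.8 CPM in CHIRON removal. In PD03 removal the fibroblast sum was higher in both soft libraries than in both stiff libraries at each time, for example 13.7 to 14.7 CPM against 13.47 to 13.52 CPM at 12 h, while the endoderm sum overlapped between substrates at 0 h and was higher in both stiff libraries at 2 h (6.91 to 7.70 against 5.06 to 6.36 CPM) and at 12 h (7.489 to 7.504 against 7.08 to 7.36 CPM). The 6 mesoderm markers summed to between 15.7 and 21.4 CPM at 0 h and 2 h of PD03 removal and to between 46.2 and 56.3 CPM at 12 h, and the 6 trophoblast markers to between 17.7 and 23.8 and then between 35.1 and 41.8 CPM. The mesoderm and trophoblast lists both hold *Eomes*, so their sums are not independent. In CHIRON removal the mesoderm sum went the other way, from between 20.1 and 22.9 CPM to between 9.64 and 12.9 CPM at 12 h, and the trophoblast sum lay between 97.9 and 128 CPM. The part of such cells in the 12 h values below was not tested.

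Between substrates 1 matrix gene passed the threshold, *Col18a1*, with a lower level on soft substrates at 12 h of PD03 removal. At an adjusted p under 0.05 (edgeR quasi-likelihood test over all genes, Benjamini-Hochberg), 0 of the 40 genes were called between soft and stiff substrates at 0 h of PD03 removal, against 0.0298% of all 13414 genes tested. Of the 40, 6 had an unadjusted p under 0.05, and DESeq2 called 0. At 2 h 0 were called, with 3 at an unadjusted p under 0.05 and 0 by DESeq2, against 0.134% of all genes. At 12 h 1 gene was called, lower on soft substrates, as were 0.485% of all genes, with 7 at an unadjusted p under 0.05 and 1 by DESeq2. Averaged over the 3 times, *Col18a1* was again the only gene called, against 1.04% of all genes lower. DESeq2 called 1 and 5 genes had an unadjusted p under 0.05. A single call among 40 genes describes that gene and not the group.

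**Figure D2:**
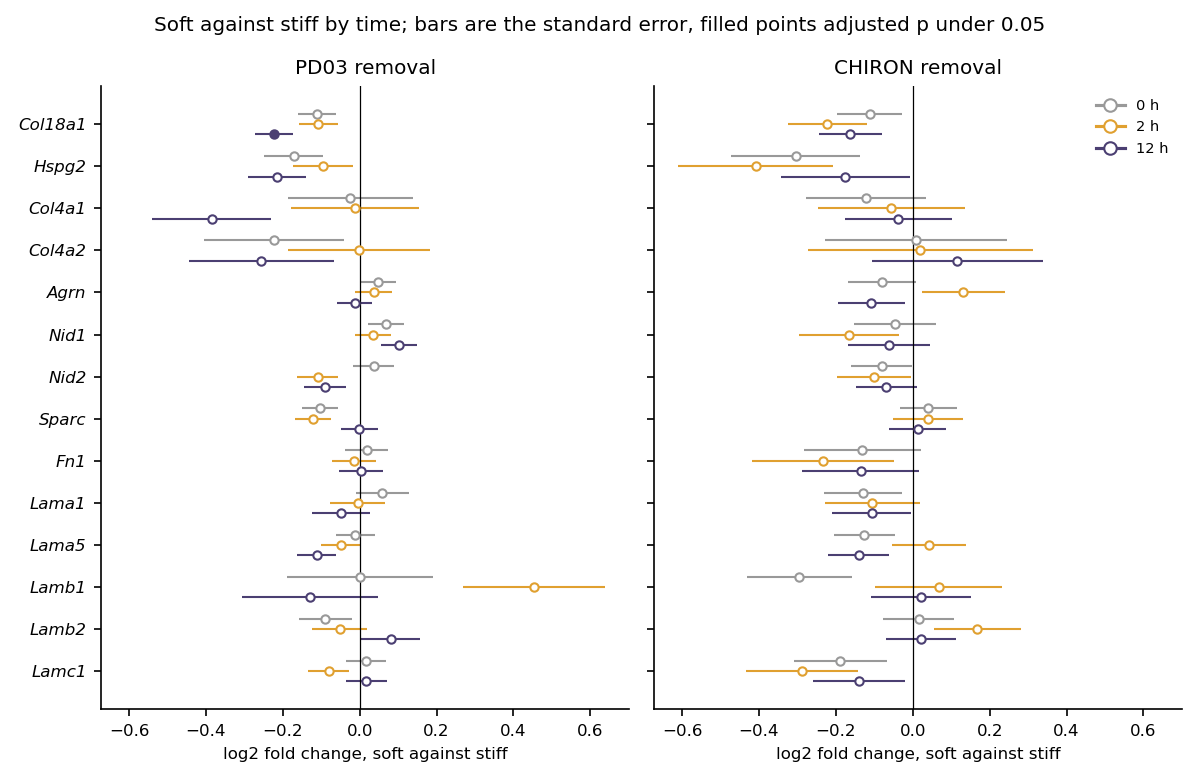
Log2 fold changes of soft against stiff substrates for the named matrix genes by time, with bars of 1 standard error and a filled point where the adjusted p was under 0.05, in panels for PD03 and CHIRON removal. *Col18a1* lies below 0 at each time in both panels and *Hspg2* does as well, while *Sparc* and *Fn1* lie at or near 0 at 12 h of PD03 removal.

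At 12 h of PD03 removal the soft libraries held 226 and 233 CPM of *Col18a1* and the stiff libraries 275 and 259 CPM. Both soft libraries lay below both stiff libraries. The log2 fold change of soft against stiff was -0.22 ± 0.05 (standard error, n = 2 per group, adjusted p = 0.017, edgeR). Leaving out any of the 4 libraries of 12 h ended this call, with adjusted p between 0.062 and 0.34, and so did the share of protein-coding counts as a covariate (adjusted p = 0.15, chosen after seeing the data). Both stiff libraries of 12 h also held more of the markers of mesoderm (55.7 to 56.3 against 46.2 to 47.5 CPM), of trophoblast (38.7 to 41.8 against 35.1 to 38.2 CPM, a list that shares *Eomes* with that of mesoderm) and of primitive and parietal endoderm (7.489 to 7.504 against 7.08 to 7.36 CPM). They held less of the pluripotency markers (5967 to 5994 against 6234 to 6395 CPM) and of the fibroblast markers (13.47 to 13.52 against 13.7 to 14.7 CPM). The part of these in the difference was not tested.

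Before removal the soft libraries held 167 and 172 CPM of *Col18a1* and the stiff ones 178 and 188 CPM. The values 2 h later were 166 and 175 against 186 and 182 CPM. The soft libraries were thus the lower ones at each time, and the fold change averaged over the 3 times was -0.15 ± 0.03 (adjusted p = 0.0035), a call that held without any 1 library, with adjusted p up to 0.027, and was lost with the covariate (adjusted p = 0.14).

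*Col18a1* lay at chromosome 10, from 77052178 to 77166548 on the minus strand of GRCm38 (GENCODE M21). Its upstream window in RefSeq is shown because it belongs to the gene called between substrates, and it is set beside those of *Col6a5* (chromosome 9, 105856078 to 105960643, minus strand) and *Col9a2* (chromosome 4, 121039385 to 121055322, plus strand), which moved in opposite directions after each removal. The windows are given on GRCm38.p6, 5′ to 3′ on the strand of the gene, in lower case because none of the motifs searched matched. Up to 250 bases before the start were searched, and the windows of *Col18a1*, *Col6a5* and *Col9a2* held 232, 250 and 69 bases. The absence of a motif therefore says least for *Col9a2*.
*Col18a1*, chr10:77166549-77166780, minus strand: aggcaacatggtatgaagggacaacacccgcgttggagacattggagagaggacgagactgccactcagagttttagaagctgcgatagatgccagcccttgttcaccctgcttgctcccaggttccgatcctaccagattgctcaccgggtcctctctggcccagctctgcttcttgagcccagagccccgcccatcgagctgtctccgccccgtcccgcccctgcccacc
*Col6a5*, chr9:105960644-105960893, minus strand: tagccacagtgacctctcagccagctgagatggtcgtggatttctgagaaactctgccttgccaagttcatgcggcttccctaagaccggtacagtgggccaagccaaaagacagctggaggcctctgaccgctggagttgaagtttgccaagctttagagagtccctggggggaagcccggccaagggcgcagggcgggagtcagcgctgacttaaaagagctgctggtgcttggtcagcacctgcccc
*Col9a2*, chr4:121039316-121039384, plus strand: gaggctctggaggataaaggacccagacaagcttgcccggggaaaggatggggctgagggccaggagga

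The motifs were searched on both strands. That of AP-1 (TGANTCA) was in 6.75% of all 32851 windows, that of ETS factors (CCGGAAG) in 6.91%, that of TCF/LEF factors (CTTTGAT) in 3.21% and that of TEAD factors (GGAATG) in 12.6%. Of the 64 genes, 45 had 50 windows between them, of which 1 held the AP-1 motif, 0 the ETS motif, 1 the TCF/LEF motif and 7, or 14.0%, the TEAD motif. The windows of the 3 genes held 60.8%, 58.8% and 62.3% G and C.

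*Hspg2*, which encodes perlecan, came next. In PD03 removal it held 183 and 167 CPM on soft and 182 and 211 CPM on stiff substrates before removal. The values were 199 and 208 against 204 and 230 CPM after 2 h, and 196 and 240 against 237 and 270 CPM after 12 h. The ranges overlapped at each time. The averaged log2 fold change of soft against stiff was -0.16 ± 0.04 (adjusted p = 0.054, edgeR). *Hspg2* passed the threshold in edgeR with a replicate block (adjusted p = 0.013), although the replicate numbers gave no pairing. It also passed without a filter on low counts and with the protein-coding share as covariate (adjusted p = 0.027). It did not pass with DESeq2, nor in edgeR with all genes in place of protein-coding genes.

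The abundant genes differed less. *Fn1* held 657 and 652 CPM on soft substrates and 623 and 669 CPM on stiff substrates at 0 h, and 531 and 584 against 549 and 563 CPM at 12 h. The groups overlapped at both times, and the log2 fold changes were 0.02 ± 0.06 and 0.00 ± 0.06. For *Lamc1* the averaged value was -0.02 ± 0.03, for *Agrn* 0.02 ± 0.03, for *Lama1* 0.00 ± 0.04 and for *Nid1* 0.07 ± 0.03, none of which passed the threshold. *Sparc* held 249 and 270 CPM on soft against 282 and 275 CPM on stiff substrates at 0 h and 234 and 236 against 234 and 237 CPM at 12 h, with log2 fold changes of -0.10 ± 0.05 and 0.00 ± 0.05.

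In CHIRON removal no matrix gene was called between substrates by the edgeR test at any time. The numbers called were 0 of 42 at 0 h, 2 h and 12 h and 0 averaged over them, with 1, 3, 1 and 4 genes at an unadjusted p under 0.05 and 0 by DESeq2 each time, and 0% of all 14615 genes tested were called in any of these 4 comparisons. *Hspg2* held 498 and 599 CPM on soft and 571 and 784 CPM on stiff substrates at 0 h, and 845 and 538 against 776 and 787 CPM at 12 h. Its soft libraries at 12 h lay on either side of the stiff libraries. The averaged log2 fold change was -0.30 ± 0.10 (adjusted p = 0.69). *Col18a1* held 85.9 and 89.7 CPM on soft and 96.8 and 92.9 CPM on stiff substrates at 0 h, and 112 and 127 against 126 and 142 CPM at 12 h. Its averaged value was -0.17 ± 0.05 (adjusted p = 0.68).

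Of the 36 genes tested in both experiments, *Col18a1*, *Col4a1*, *Hspg2* and *Lama3* had a negative fold change in all 6 comparisons of soft with stiff, and *Col20a1*, a collagen of the FACIT group, a positive one. Of all 13167 genes tested in both, 4.01% were negative in all 6 and 3.09% were positive in all 6. The stiff group at 2 h of CHIRON removal had 1 library, which was assumed to vary like the other groups.

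For some genes the spread between libraries of CHIRON removal went with the share of protein-coding counts. In each of the 5 groups with 2 libraries, *Fn1*, *Lama1*, *Lamb1*, *Lamc1* and *Nid1* had the higher level in the library with the larger share of protein-coding counts, as did 5.00% of all genes tested. *Hspg2* did so in 4 of the 5 groups, *Lama5* in 1, *Col18a1* in 2 and *Col9a2* in 0. At 12 h on soft substrates, where the shares were 85.3% and 78.0%, *Fn1* held 2893 and 1882 CPM (the plot of level against protein-coding share). The part of library composition in these levels was not tested.

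**Figure D3:**
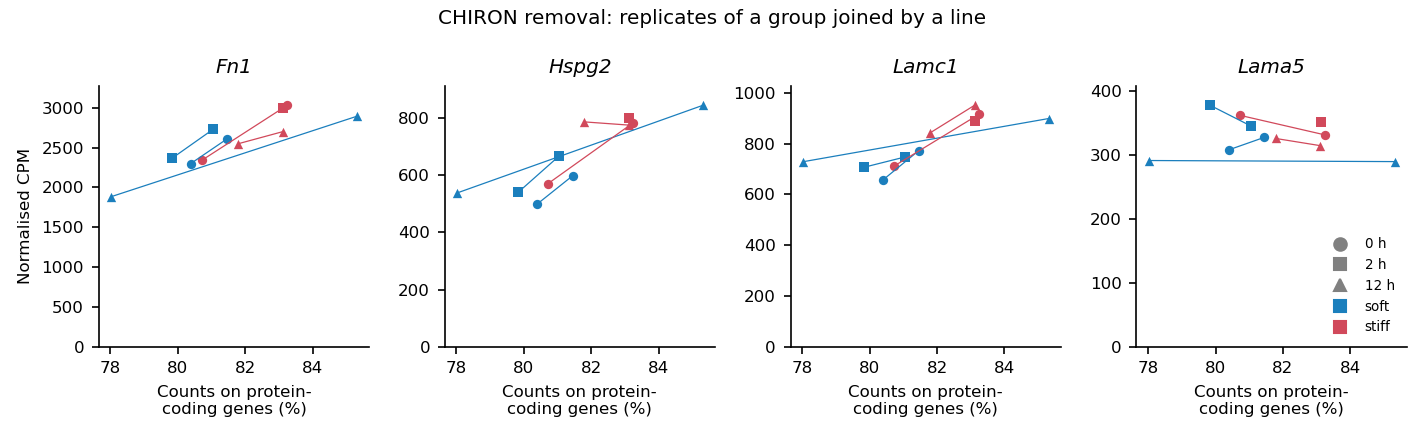
Levels in CPM of *Fn1*, *Hspg2*, *Lamc1* and *Lama5* in the 11 libraries of CHIRON removal against the share of counts on protein-coding genes in percent, with lines joining the 2 libraries of a group. For *Fn1* and *Lamc1* each line rises to the right, whereas for *Lama5* 1 of 5 does.

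The removal of PD03 changed more of these genes than the substrate did. At 12 h against 0 h, 7 of the 40 genes rose and 8 fell on soft substrates, against 14.1% and 15.3% of all genes, and 11 rose and 8 fell on stiff substrates, against 18.5% and 19.9%. The median log2 fold change of the 40 genes was 0.04 on soft and 0.33 on stiff substrates, beside 0.00 for all genes on both. On both substrates 7 genes rose (*Agrn*, *Col13a1*, *Col18a1*, *Col6a5*, *Col9a1*, *Hspg2* and *Lama5*) and 7 fell (*Col5a2*, *Col9a2*, *Fn1*, *Lama1*, *Lamb2*, *Nid1* and *Sparc*). Of the 7 that rose, *Col9a1* passed the filter on low counts only through its libraries of 12 h, so its call is no support for a rise.

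Protein-coding genes took 76.7% to 77.5% of the counts before PD03 removal and 73.1% to 74.5% after 12 h. With this share as covariate, which overlaps with time, 6 genes were called on soft and 5 on stiff substrates. Without soft 0 h replicate 2 the number on soft substrates was 9, and without stiff 0 h replicate 2 that on stiff substrates was 12.

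Basement membrane proteoglycans rose after PD03 removal. *Agrn*, which binds laminin, held 266 and 259 CPM at 0 h and 369 and 383 CPM at 12 h on soft substrates, and 246 and 261 against 383 and 376 CPM on stiff substrates. The libraries of 12 h lay apart from those of 0 h on both substrates. The log2 fold changes were 0.52 ± 0.05 (adjusted p = 1.2e-09) and 0.58 ± 0.05 (adjusted p = 6.2e-11). *Col18a1*, with the values above, rose by 0.44 ± 0.05 and 0.55 ± 0.05, and *Hspg2* by 0.32 ± 0.08 and 0.36 ± 0.08.

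**Figure D4:**
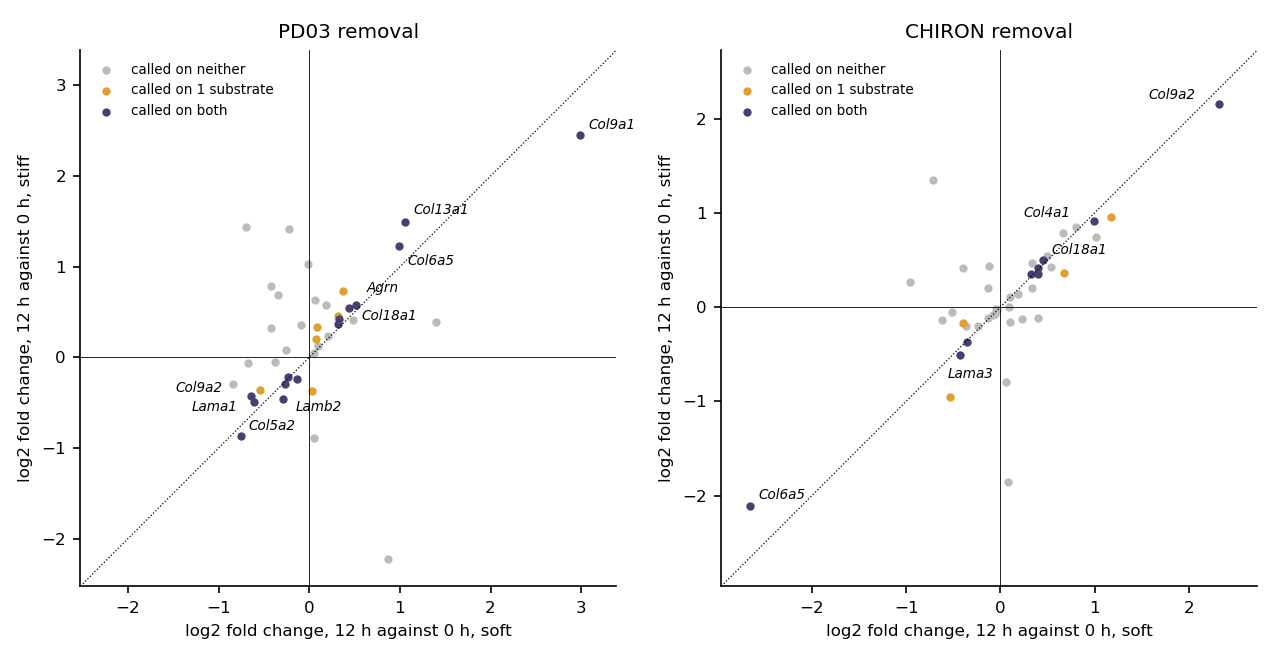
Log2 fold changes of 12 h against 0 h on soft (horizontal) and stiff (vertical) substrates, 1 point per matrix gene tested, with the colour giving the number of substrates on which the gene was called and a dotted line where both are equal. *Col9a1* in the PD03 panel rests on at most 11 counts per library. Genes called on both substrates lie near the line in both panels, and *Col9a2* and *Col6a5* lie on opposite sides of 0 in the panels of PD03 and CHIRON removal.

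Laminin chains moved in both directions after PD03 removal. Of the 4 α chains tested, *Lama5* rose and *Lama1* fell. *Lama1* held 173 and 176 CPM at 0 h and 102 and 127 CPM at 12 h on soft substrates, and 156 and 179 against 116 and 122 CPM on stiff substrates. Its levels of 12 h were all below those of 0 h, with log2 fold changes of -0.61 ± 0.07 (adjusted p = 1.8e-07) and -0.50 ± 0.07 (adjusted p = 3.2e-06). *Lama5* held 270 and 248 CPM and then 317 and 331 CPM on soft substrates, and 247 and 274 and then 349 and 352 CPM on stiff substrates, for changes of 0.32 ± 0.05 and 0.42 ± 0.05. The α chain with the higher level at 12 h was therefore *Lama5*, as it was at 0 h, by a wider margin.

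Of the β chains, *Lamb2* fell by 0.29 ± 0.07 on soft and by 0.46 ± 0.07 on stiff substrates on the log2 scale, and *Lamb1* rose on stiff substrates (0.45 ± 0.18, adjusted p = 0.047), with 0.32 ± 0.18 on soft substrates (adjusted p = 0.19). Of the γ chains, *Lamc1* stayed within 0.05 ± 0.05 on both substrates.

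Fibronectin, nidogen and *Sparc* went down. *Fn1* was lower at 12 h by 0.23 ± 0.06 on soft (adjusted p = 0.0027) and by 0.22 ± 0.06 on stiff substrates (adjusted p = 0.0035) on the log2 scale, from the levels given above. *Nid1* held 464 and 482 CPM at 0 h and 381 and 407 CPM at 12 h on soft substrates, and 441 and 461 against 376 and 359 CPM on stiff substrates. Its groups did not overlap, and it fell by 0.26 ± 0.05 and 0.30 ± 0.05. *Sparc* fell by 0.14 ± 0.05 (adjusted p = 0.024) and 0.24 ± 0.05 (adjusted p = 0.00014). *Nid2* did not follow *Nid1*, since it rose by 0.21 ± 0.05 on stiff substrates (adjusted p = 0.0035) and had 0.08 ± 0.05 on soft substrates (adjusted p = 0.29).

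Of the 3 collagen IV chains tested, *Col4a1* was called, and it rose on stiff substrates. *Col4a5*, with at most 11 counts in a library, was not called. *Col4a1* held 6.24 and 7.80 CPM at 0 h and 11.8 CPM in both libraries at 12 h on stiff substrates, a change of 0.74 ± 0.16 (adjusted p = 0.00044). On soft substrates it held 6.90 and 7.04 and then 9.42 and 8.66 CPM, or 0.37 ± 0.16 (adjusted p = 0.081). *Col4a2* had 0.10 ± 0.19 and 0.13 ± 0.18 and was not called. *Col4a1* and *Col4a2* lie head to head on chromosome 8 and share 0.295% of the exon bases of *Col4a1*.

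The other collagens were low in level, and among them were the changes of greatest size. *Col6a5*, a chain of the beaded filament collagen VI, held 10.8 and 9.64 CPM at 0 h and 20.6 and 19.99 CPM at 12 h on soft substrates, and 12.4 and 9.52 against 24.9 and 25.9 CPM on stiff substrates. The libraries of 12 h exceeded all those of 0 h, with 0.99 ± 0.13 (adjusted p = 6.3e-07) and 1.23 ± 0.12 (adjusted p = 4.4e-09). *Col13a1*, a transmembrane collagen, rose by 1.06 ± 0.36 and 1.49 ± 0.36 from levels of 0.697 to 1.73 CPM at 0 h. *Col9a1*, a chain of collagen IX, had 2 and 0 counts at 0 h and 5 and 11 counts at 12 h on soft substrates, and 4 and 0 and then 10 and 7 counts on stiff substrates, and no fold is given for it.

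Among those that fell, *Col5a2*, a chain of the fibrillar collagen V, held 7.19 and 8.94 CPM at 0 h and 4.95 and 4.56 CPM at 12 h on soft substrates, and 6.69 and 9.42 against 4.25 and 4.70 CPM on stiff substrates. The log2 fold changes were -0.76 ± 0.19 (adjusted p = 0.0025) and -0.87 ± 0.19 (adjusted p = 0.0006). *Col9a2*, a chain of the FACIT collagen IX of cartilage, held 21.2 and 19.97 and then 12.3 and 14.0 CPM on soft substrates, and 16.3 and 17.4 and then 11.5 and 13.7 CPM on stiff substrates. It fell by 0.64 ± 0.13 and 0.43 ± 0.14. *Col11a1* fell on soft substrates (-0.54 ± 0.18, adjusted p = 0.027), and *Col5a1* rose on stiff substrates (0.33 ± 0.11, adjusted p = 0.019).

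Whether the response to PD03 removal differed between substrates was tested directly. Of the 40 genes, 0 were called by edgeR, 3 had an unadjusted p under 0.05 and 0 were called by DESeq2, against 0% of all genes. The 12 h log2 fold change was lower on soft than on stiff for 29 of the 40 genes (72.5%), against 49.5% of all genes. The median difference was -0.13, beside 0.00 for all genes, and the median standard error of the 40 genes was 0.268. These genes are not replicates of each other, and the count was not tested.

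At 2 h of PD03 removal 0 of the 40 genes were called on soft substrates by edgeR, with 5 at an unadjusted p under 0.05 and 0 by DESeq2, against 1.96% of all genes. On stiff substrates 3 rose, *Fn1*, *Nid2* and *Lamc1*, against 1.83% of all genes. *Fn1* went from 623 and 669 CPM to 699 and 807 CPM (0.22 ± 0.06, adjusted p = 0.027), *Nid2* changed by 0.21 ± 0.05 (adjusted p = 0.027) and *Lamc1* by 0.20 ± 0.05 (adjusted p = 0.033). DESeq2 called 1 of the 3, and 0 were called when all genes or only the compared groups were fitted. *Fn1* on soft substrates had 0.19 ± 0.06 (adjusted p = 0.10), so that its level was above that of 0 h at 2 h and below it at 12 h.

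**Figure D5:**
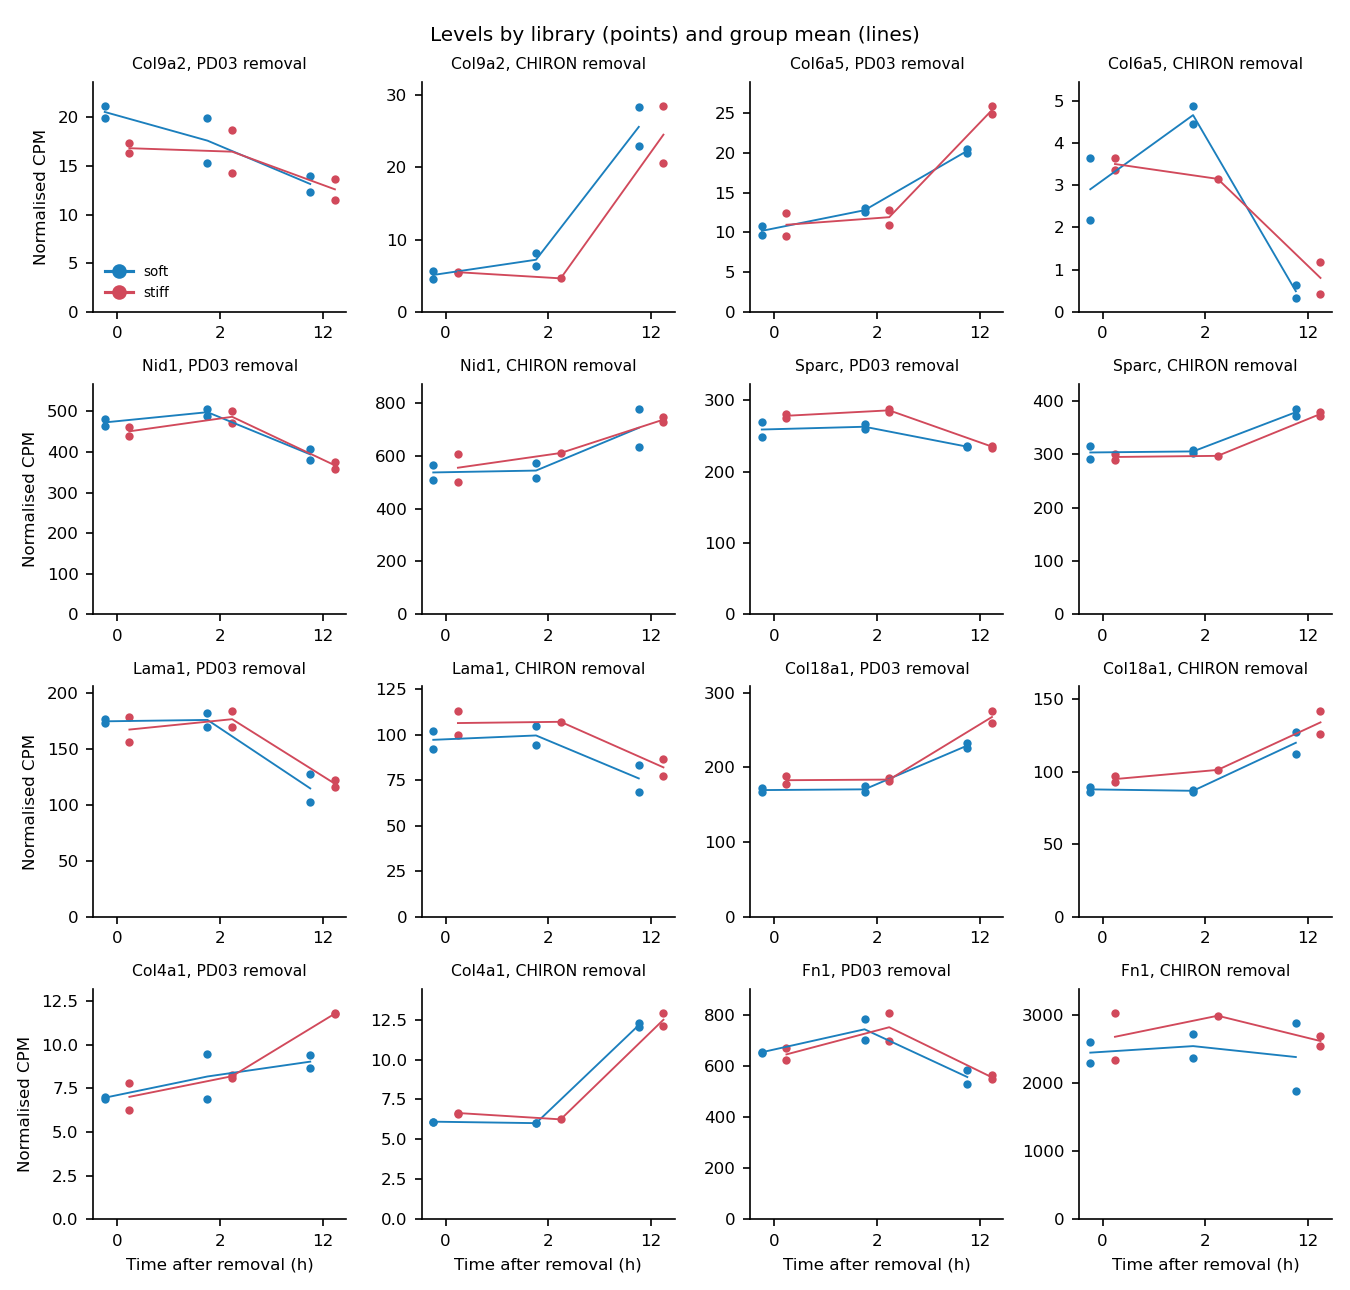
Levels in CPM of 8 matrix genes in each library (points) by hours after removal, on evenly spaced positions, with lines through the group means, blue for soft and red for stiff substrates, and a panel for each gene and removal. *Col6a5* rises to between 19.99 and 25.9 CPM at 12 h of PD03 removal and falls to between 0.337 and 1.18 CPM at 12 h of CHIRON removal, and *Col9a2* does the reverse.

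The removal of CHIRON also changed matrix genes by 12 h. On soft substrates 8 of the 42 genes rose and 4 fell, against 9.18% and 8.63% of all genes, and on stiff substrates 6 rose and 4 fell, against 8.46% and 8.33%. The medians of the 42 genes were 0.08 and 0.12, beside -0.01 for all genes on both substrates. On both substrates 6 genes rose (*Col18a1*, *Col4a1*, *Col5a1*, *Col9a2*, *Nid1* and *Sparc*) and 3 fell (*Col6a5*, *Lama1* and *Lama3*). Without soft 0 h replicate 1 or 2 the number called on soft substrates was 6 or 7, and with the shallow library kept it was 3 on either substrate.

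*Col9a2* had the greatest rise of those called. It held 5.61 and 4.60 CPM at 0 h and 22.9 and 28.3 CPM at 12 h on soft substrates, and 5.53 and 5.43 against 20.6 and 28.5 CPM on stiff substrates. No library of 12 h came near those of 0 h, and the log2 fold changes were 2.32 ± 0.18 (adjusted p = 1.0e-07) and 2.16 ± 0.19 (adjusted p = 2.7e-07). *Col6a5* had the greatest fall. It held 2.17 and 3.64 CPM and then 0.337 and 0.640 CPM on soft substrates, and 3.64 and 3.37 and then 1.18 and 0.426 CPM on stiff substrates. The changes were -2.66 ± 0.45 (adjusted p = 0.00037) and -2.11 ± 0.41 (adjusted p = 0.0013).

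Of the collagen IV chains, *Col4a1* rose in CHIRON removal as well. *Col4a1* held 6.10 and 6.12 CPM at 0 h and 12.3 and 12.0 CPM at 12 h on soft substrates, and 6.62 and 6.68 against 12.11 and 12.9 CPM on stiff substrates. These libraries were close within each group, and the log2 fold changes were 0.99 ± 0.15 (adjusted p = 0.0001) and 0.91 ± 0.15 (adjusted p = 0.00027). *Col4a2* had 0.54 ± 0.23 (adjusted p = 0.12) and 0.43 ± 0.23 (adjusted p = 0.24). *Col18a1* rose by 0.45 ± 0.08 and 0.50 ± 0.08, and *Col5a1* by 0.39 ± 0.11 and 0.35 ± 0.11. *Col5a3* rose on soft substrates (1.17 ± 0.38, adjusted p = 0.038), with 0.96 ± 0.37 on stiff substrates, and *Col20a1* fell on stiff substrates (-0.96 ± 0.29, adjusted p = 0.031).

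Of the proteins that link the networks, *Nid1* held 508 and 565 CPM at 0 h and 778 and 633 CPM at 12 h on soft substrates, and 502 and 607 against 745 and 728 CPM on stiff substrates. The libraries of 12 h lay above those of 0 h, with 0.40 ± 0.11 (adjusted p = 0.015) and 0.41 ± 0.11 (adjusted p = 0.012). *Sparc* held 292 and 315 and then 386 and 372 CPM on soft substrates, and 289 and 301 and then 372 and 380 CPM on stiff substrates, and rose by 0.32 ± 0.07 and 0.35 ± 0.07. *Nid2* (-0.06 ± 0.08 and -0.07 ± 0.08), *Agrn* (-0.05 ± 0.09 and -0.02 ± 0.09) and *Fn1* (-0.04 ± 0.15 and -0.03 ± 0.15) were not called. *Hspg2* had 0.34 ± 0.17 (adjusted p = 0.19) and 0.21 ± 0.17 (adjusted p = 0.45), and *Loxl2* 0.33 ± 0.32 and 0.47 ± 0.31.

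Among laminin chains, *Lama1* held 92.1 and 102 CPM at 0 h and 83.3 and 68.7 CPM at 12 h on soft substrates, and 99.8 and 113 against 86.8 and 77.4 CPM on stiff substrates. It fell by 0.35 ± 0.10 (adjusted p = 0.023) and 0.37 ± 0.10 (adjusted p = 0.016) on the log2 scale. *Lama3*, an α chain of epithelial laminin, fell by 0.43 ± 0.14 and 0.51 ± 0.14. *Lamb1* rose on soft substrates (0.67 ± 0.13, adjusted p = 0.0017), with 0.36 ± 0.13 on stiff substrates (adjusted p = 0.080). *Lamc1* (0.19 ± 0.12 and 0.14 ± 0.12) and *Lamb2* (-0.08 ± 0.09 on both) were not called.

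In the other comparisons of CHIRON removal edgeR and DESeq2 each called 0 of the 42 genes. These were 2 h against 0 h on soft substrates (7 at an unadjusted p under 0.05, against 0.226% of all genes called), 2 h against 0 h on stiff substrates (1, against 0.103%) and the difference between substrates in the 12 h response (0, against 0%).

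Several genes moved in opposite directions after each removal. Of the 36 genes tested in both experiments, 6 (16.7%) had libraries of 12 h apart from those of 0 h on both substrates, in 1 direction after PD03 removal and in the other after CHIRON removal, against 10.4% of all genes. They were *Col6a5* and *Lama5*, higher at 12 h of PD03 removal, *Lama3*, also higher, and *Col9a2*, *Nid1* and *Sparc*, lower there. For *Col6a5* and *Col9a2* the levels at 0 h already differed between the experiments, as given above. *Col18a1*, *Col4a1*, *Lama1* and *Lamb1* (11.1%, against 11.2% of all genes) lay apart in the same direction after both. Of these, *Lama1* was the gene that went down.

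Genes that work with the matrix were counted from 3 lists. Beside their counts at 12 h stand the shares of all genes that rose and fell, 14.1% and 15.3% on soft and 18.5% and 19.9% on stiff substrates after PD03 removal, and 9.18% and 8.63% on soft and 8.46% and 8.33% on stiff substrates after CHIRON removal. Of 20 matrix receptors 18 were tested. At 12 h of PD03 removal 6 rose and 4 fell on soft and 8 rose and 6 fell on stiff substrates, and at 12 h of CHIRON removal 6 rose and 1 fell on soft and 5 rose and 1 fell on stiff substrates. *Itga3*, the α subunit of a laminin receptor, rose by 1.04 ± 0.09 and 1.16 ± 0.09 after PD03 removal and by 1.00 ± 0.08 and 0.88 ± 0.08 after CHIRON removal (soft and stiff). *Itga5*, the α subunit of the main fibronectin receptor, rose by 0.49 ± 0.07 and 0.40 ± 0.07 and by 0.57 ± 0.08 and 0.59 ± 0.08. *Ddr2*, a collagen receptor kinase, fell by 0.81 ± 0.13 and 1.15 ± 0.14 after PD03 removal.

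Between substrates, 2 of the 18 receptors were called, both lower on soft substrates averaged over the 3 times of PD03 removal, as were 1.04% of all genes. They were *Bcam*, a receptor of laminin α5 (-0.14 ± 0.03, adjusted p = 0.014), and *Itgb1*, the β subunit that pairs with most matrix-binding α subunits (-0.10 ± 0.03, adjusted p = 0.046). For genes of these lists, here and below, the alternative fits were not followed. Over all genes, this averaged comparison called 114 higher and 139 lower, and 45 and 61 with the protein-coding share as covariate.

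Of 25 genes for the folding, export and cross-linking of collagen, 22 were tested in PD03 removal and 23 in CHIRON removal. After PD03 removal 3 rose and 7 fell on soft and 4 rose and 5 fell on stiff substrates, and after CHIRON removal 3 rose and 0 fell on either, to be read against the shares above. *P4ha1*, a prolyl hydroxylase that stabilises the collagen helix, fell by 0.60 ± 0.10 and 0.54 ± 0.11 after PD03 removal and rose by 0.98 ± 0.13 and 0.86 ± 0.13 after CHIRON removal. *Serpinh1*, the collagen chaperone Hsp47, rose by 0.27 ± 0.06 and 0.42 ± 0.06 after PD03 removal, and *Sec23a*, a coat protein of export vesicles, fell by 0.39 ± 0.05 and 0.44 ± 0.05.

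Of 18 proteases and inhibitors of the matrix, 17 and 18 were tested. At 12 h of PD03 removal 4 rose and 2 fell on soft and 3 rose and 3 fell on stiff substrates, and at 12 h of CHIRON removal 4 rose and 2 fell and 5 rose and 1 fell, counts to be read against the same shares. *Ctsb*, a cathepsin, fell by 0.42 ± 0.05 and 0.52 ± 0.05 and by 0.58 ± 0.08 and 0.57 ± 0.08, and it was the gene of this list called between substrates (0.12 ± 0.03, adjusted p = 0.021, higher on soft averaged over the 3 times of PD03 removal, as were 114 of all 13414 genes). *Timp2*, an inhibitor of metalloproteinases, rose by 1.42 ± 0.29 and 1.32 ± 0.29 after CHIRON removal.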

How the data were processed

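The deposited values are read counts per gene without normalisation. The authors aligned reads to GRCm38 (mm10) with TopHat2 2.1.0 and counted them per gene with featureCounts 1.5.0, and the submitters' processing notes also name Trim Galore and DESeq2. The strand setting of the counting is not given in the sources used here, and at most 8.45% of a member's exon bases overlap another gene. Lines without a gene (23), and 12 columns of samples outside this series, were not used, and 15 identifiers that look like dates could not be matched to a gene.

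Protein-coding genes (GENCODE M21) that passed the low-count filter of edgeR 4.0.16 (filterByExpr, with 10 counts as the minimum and 15 in total) were scaled by TMM and fitted with the edgeR quasi-likelihood test in R 4.3.3, with all 6 groups of an experiment in 1 model and Benjamini-Hochberg adjustment over all genes at 0.05. Standard errors were computed as the absolute log2 fold change over the root of F. DESeq2 1.42.0, other filters and gene sets, replicate blocks, and leaving out each library were alternatives. The labels do not say that replicates are separate cultures, so p-values may measure technical spread alone. Replicates differed by more than sampling noise (2.19 to 3.16 and 6.24 to 18.1 chi-square units for each degree of freedom). Members, lists and tests were chosen with earlier results of these data known. Named genes were those called between substrates, 14 basement membrane genes whatever their values, the 5 members of largest change in each direction called on both substrates at 12 h, the 5 of highest level, and for other lists up to 4 genes of smallest adjusted p; other called members were named after their values were seen. Levels per kilobase use the union of exons. Python 3.11.15 was used for tables and plots, with matplotlib 3.10.9, pandas 2.3.3 and numpy 2.4.6. Some genes that count among those called are not reported here by name.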

Additional observations from a re-analysis of the deposited data

Results flagged for a closer look

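At 12 h against 0 h, 6 genes had libraries that all moved in 1 direction after PD03 removal and all in the other after CHIRON removal. The difference between removals was not tested, because the experiments were counted and normalised in separate tables. Log2 fold changes are given for soft and then stiff substrates. *Col6a5* had 0.99 and 1.23 after PD03 removal and -2.66 and -2.11 after CHIRON removal. *Col9a2* had -0.64 and -0.43, and then 2.32 and 2.16. *Nid1* had -0.26 and -0.30, and then 0.40 and 0.41. *Sparc* had -0.14 and -0.24, and then 0.32 and 0.35. These 4 genes were called in all 4 comparisons. At 0 h, in the same 2i + LIF, *Col6a5* and *Col9a2* each had a higher level in PD03 removal than in CHIRON removal (values above). The part of this difference between experiments in the opposite directions was not tested.

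*Lama5* had 0.32 and 0.42 after PD03 removal, both called, and -0.13 and -0.12 after CHIRON removal, neither called. *Lama3* had 0.21 and 0.23, neither called, and then -0.43 and -0.51, both called.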

How the results depend on the processing

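Of 75 pairs of a gene and a comparison followed, 61 were called, and 24 kept their direction and call under every alternative. Of 901 alternative values 5 had the opposite sign. They were *Hspg2* between substrates at 12 h of CHIRON removal without soft 12 h replicate 2 (0.11, and -0.54 without replicate 1), *Col18a1* and *Hspg2* at 2 h with all 12 libraries (0.12 and 0.42), and, with the protein-coding share as covariate, *Col9a1* (-0.36) and *Fn1* (0.035) at 12 h of PD03 removal on stiff substrates. DESeq2 gave no adjusted p for *Col9a1*. The causes were not tested. Depth limits the untested genes and those under 2 CPM. With the longest transcript in place of the exon union, 9 length-scaled levels of the most abundant genes moved beyond the SD of their libraries at 0 h. For 1 level the move was smaller than that SD.

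Numbers of genes called moved as follows. Without a filter on low counts they were 2 between substrates at 12 h of PD03 removal (*Col18a1* and *Hspg2*), 2 averaged over time and 2 at 2 h on soft substrates, and in CHIRON removal 1 between substrates at 2 h, 2 averaged and 1 at 2 h on soft substrates. With the protein-coding share as covariate they were 0 between substrates at 12 h of PD03 removal, 2 (soft) and 0 (stiff) at 2 h, and 6 and 5 at 12 h. The 1 gene then called on average was *Hspg2* in place of *Col18a1*. At 2 h of PD03 removal on stiff substrates DESeq2 called 1, and 0 were called with all genes and with only the groups compared, which gave 2 on soft substrates. With all 12 libraries 3 were called at 12 h of CHIRON removal on either substrate.

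The replicate numbers gave no pairing, as correlations of their deviations ranged from -0.109 to 0.113. The replicate block gave 2 genes averaged over time and 1 at 2 h on soft substrates in PD03 removal, 15 and 18 at 12 h, and 11 and 9 at 12 h of CHIRON removal, or 6 on stiff substrates with a replicate block by tube number. Leaving out each library in turn gave 0 to 0 between substrates at 12 h of PD03 removal and 1 to 2 on average, 0 to 1 and 0 to 3 at 2 h on soft and stiff substrates, and 9 to 15 and 12 to 18 at 12 h. At 12 h of CHIRON removal it gave 6 to 11 on soft and 7 to 7 on stiff substrates.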
